A study of Mus musculus with 8 samples.

Results

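Calcium- and sodium-activated potassium channels were represented by 8 genes, chosen by name from 20985 probe sets on the array. They comprise the BK channel pore gene Kcnma1 with its auxiliary subunits Kcnmb2 and Kcnmb4, the SK channel genes Kcnn1, Kcnn2 and Kcnn3, and the sodium-activated channel genes Kcnt1 (Slack) and Kcnt2 (Slick). Each gene had 1 probe set, so all 8 members were measured. Hippocampal RNA came from 4 male Kv10.1 -/- knockout mice and 4 male Kv10.1 +/+ wildtype mice, all 8 weeks old and untreated, with 1 array per mouse. Kv10.1, or Eag1, is a voltage-gated potassium channel encoded by Kcnh1, and the study set out to characterise mice that lack it. The labels state neither the strain nor how the null allele was made. Values are deposited log2 expression levels, on which a step of 1 is a doubling, and differences are knockout minus wildtype.

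These channels turn a rise in intracellular calcium or sodium into potassium efflux, which repolarises the neuron. BK channels open when calcium and depolarisation act together, shorten the action potential and give the fast afterhyperpolarisation. SK channels do not sense voltage. They open through calmodulin bound to the channel, limit firing rate and dampen synaptic potentials in hippocampal dendrites. Slack and Slick open on sodium that enters during firing. Kv10.1 itself is closed by calcium-bound calmodulin, so calcium acts on it in the direction opposite to its effect on BK and SK channels.

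The arrays had medians between 7.5 and 7.55. Their interquartile ranges ran from 2.09 in wildtype 4 to 2.30 in knockout 1 and 2.42 in wildtype 1, so wildtype 1 had the widest spread of values. On the first principal component, which held 44.2% of the variance, wildtype 1 scored 32.0 and stood furthest out. Knockout 1 came next on the same side at 14.9, and the other 6 arrays scored from -15.9 to 0.81. Kcnh1 read 8.36, 8.31, 8.43 and 8.29 in knockouts, against 9.52, 9.35, 9.22 and 9.27 in wildtype mice. It fell by 0.99 ± 0.081 (SE) in the knockouts (limma adjusted p = 0.00319), in the direction that the genotype labels give, although the place of its probes relative to the deletion is not known here. The granule cell gene Prox1 read 10.19 to 10.81 in knockouts and 10.43 to 10.88 in wildtype mice, and the CA1 gene Wfs1 read 9.19 to 9.64 in knockouts and 8.90 to 9.61 in wildtype mice. Of the 15 hippocampal neuron genes listed, 9 had a negative difference and 6 a positive one, and none passed the test. The granule cell gene Dsp did not overlap between the groups, at 8.75 to 9.18 in knockouts and 9.23 to 9.40 in wildtype mice. Its difference was -0.38 (limma adjusted p = 0.997). Every knockout value lay below every wildtype value for 1.19% of all probe sets. Detection calls were not analysed here, so a low level could not be told from background.

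None of the 8 channel genes passed an adjusted p of 0.05, and none had an unadjusted limma p under that value. Over all probe sets 0.00477% passed the adjusted threshold and 3.16% the unadjusted one (1.63% higher and 1.53% lower in the knockouts). All 8 genes had overlapping knockout and wildtype values, where 2.16% of all probe sets did not overlap (0.967% with the knockouts above and 1.19% below). Of the differences, 4 were positive and 4 negative, with a median of -0.0050 against -0.0025 over all probe sets. Without wildtype 1 the split was 5 positive and 3 negative, with a median of 0.04. The median size of the difference, regardless of sign, was 0.101 for the channel genes and 0.065 for all probe sets, and the median standard errors were 0.114 and 0.0922. With 4 mice per genotype, 95% intervals admitted differences of up to 0.22 log2 units for Kcnma1 and up to 0.50 for Kcnt1.

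**Figure D1:**
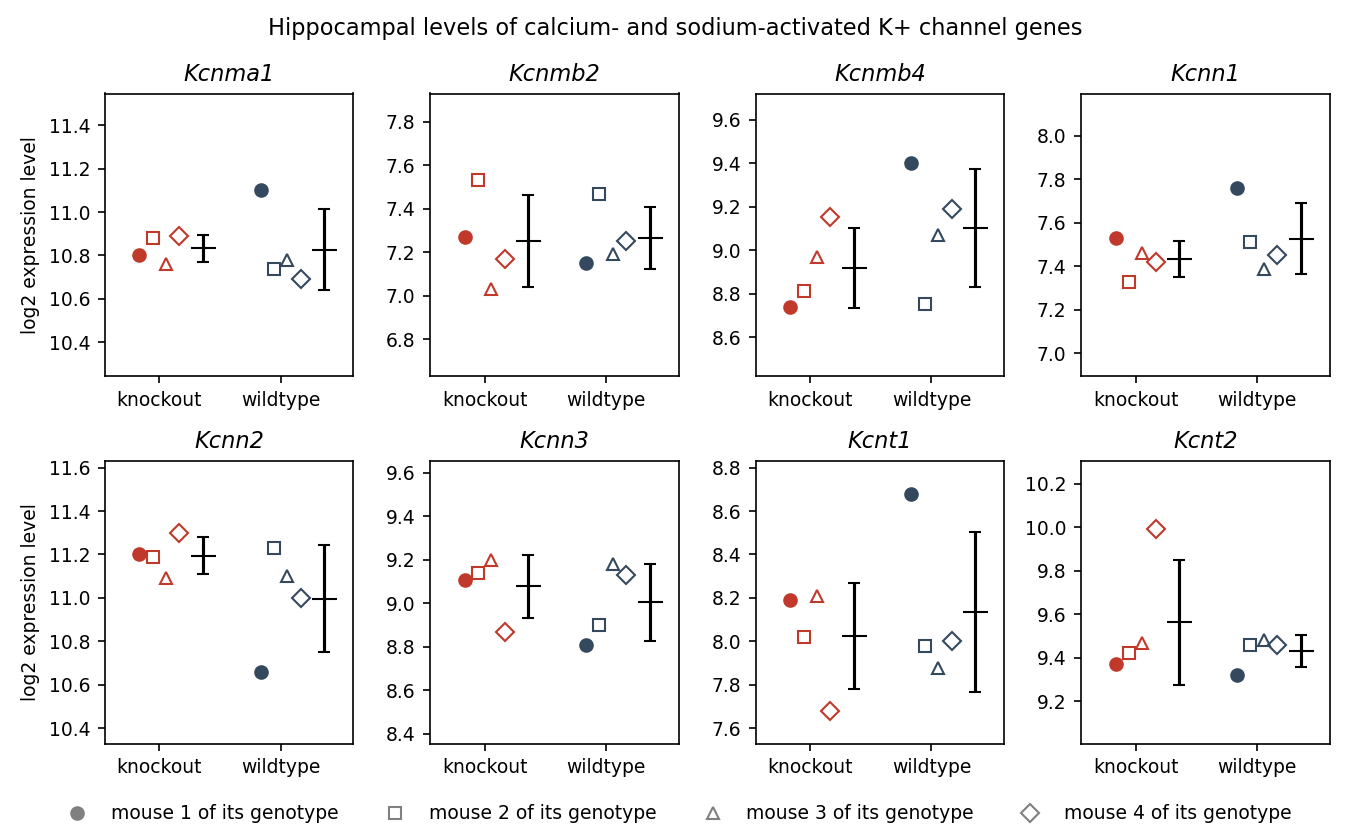
Log2 expression level (vertical axis, 1.3 log2 units high in every panel) of the 8 channel genes, with knockout mice in red left of wildtype mice in dark blue. Each symbol is 1 mouse, the bars are mean and SD of 4, and filled circles are knockout 1 and wildtype 1. The groups overlap in every panel, and wildtype 1 lies outside the other 7 arrays for all genes but Kcnmb2.

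Promoter sequences are shown for 5 of the genes because the first 3 of them read highest, and the last 2 lowest, on the same array, wildtype 1. Kcnt1, also highest there, and Kcnn2, also lowest, are not shown. They are the 100 bases upstream of the first listed RefSeq start site on build GRCm38.p6, 5′ to 3′ on the gene's strand, with CG dinucleotides in capitals.
Kcnma1, chr14:24004206-24004305, minus strand: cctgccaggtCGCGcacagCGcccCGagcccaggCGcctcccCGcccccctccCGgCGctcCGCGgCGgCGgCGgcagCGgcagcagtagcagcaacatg
Kcnmb4, chr10:116473524-116473623, minus strand: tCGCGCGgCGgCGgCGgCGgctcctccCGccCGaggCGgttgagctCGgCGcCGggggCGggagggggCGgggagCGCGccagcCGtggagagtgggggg
Kcnn1, chr8:70863259-70863358, minus strand: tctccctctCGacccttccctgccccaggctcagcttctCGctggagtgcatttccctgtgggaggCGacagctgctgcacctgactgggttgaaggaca
Kcnn3, chr3:89520064-89520163, plus strand: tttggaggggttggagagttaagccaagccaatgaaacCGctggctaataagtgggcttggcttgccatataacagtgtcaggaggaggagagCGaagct
Kcnt2, chr1:140245618-140245717, plus strand: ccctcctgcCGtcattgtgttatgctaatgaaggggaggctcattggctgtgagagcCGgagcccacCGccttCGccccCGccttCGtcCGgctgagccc
The windows differ in base composition. Over 250 upstream bases, G and C made up 83.6% in Kcnmb4, 79.2% in Kcnma1, 63.6% in Kcnn1, 61.6% in Kcnt2 and 58.8% in Kcnn3, against a median of 52.4% over 32851 promoters. Kcnmb4 held 43 CG dinucleotides and Kcnma1 31, while Kcnn1, Kcnn3 and Kcnt2 held 10 each and the median promoter 6. The letters GGGCGG, read on either strand, were present in Kcnma1 and Kcnmb4 and absent from the other 3 windows, and 32.7% of all promoters held them. A second listed start of Kcnn1 also held them. The letters TATAAA were in none of the 5, against 12.4% of all promoters. Kcnmb2 had 47.2% G and C and neither motif. These are descriptions of the windows, and no relation to the readings was tested.

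Kcnma1, the pore subunit that makes every BK channel, read 10.80, 10.88, 10.76 and 10.89 in knockouts, against 11.10, 10.74, 10.78 and 10.69 in wildtype mice. Wildtype 1 was the highest of all 8 mice and the other 3 wildtype mice lay from below to within the knockout range. The knockouts averaged 10.83 ± 0.0629 and the wildtype mice 10.83 ± 0.185 (SD, 4 mice each), with a difference of 0.0050 ± 0.095 (SE; limma adjusted p = 0.997). As a fold, the 95% interval ran from 0.867 to 1.16. Its sign was not settled, since the difference was 0.10 without wildtype 1 but between -0.04 and -0.01 without any 1 of knockout 2, knockout 4, wildtype 2, wildtype 3 or wildtype 4.

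Kcnmb4 encodes the BK auxiliary subunit β4, which is abundant in brain, slows channel gating and makes the channel resistant to iberiotoxin. It read 8.74, 8.81, 8.97 and 9.15 in knockouts, against 9.40, 8.75, 9.07 and 9.19 in wildtype mice. The 2 lowest readings were those of knockout 1 and wildtype 2, and 3 of the 4 wildtype mice lay above 3 of the 4 knockouts. The difference of -0.185 ± 0.137 (SE; limma adjusted p = 0.997) had an interval from -0.49 to 0.12. It was -0.09 without wildtype 1, -0.30 without wildtype 2, -0.13 without knockout 1 and -0.03 without both knockout 1 and wildtype 1. The difference was negative in all 17 alternative fits. Of these, the intensity trend, robust moderation and leaving out dim probe sets cannot change a difference, only its SE.

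Kcnmb2 encodes β2, whose amino terminus plugs the open pore and so inactivates BK channels. Its readings were 7.27, 7.53, 7.03 and 7.17 in knockouts, against 7.15, 7.47, 7.19 and 7.25 in wildtype mice. Both the highest and the lowest of the 8 mice were knockouts. The means, 7.25 in knockouts and 7.265 in wildtype mice, lay below the array medians of 7.5 to 7.55. At that level signal could not be told from background. The difference was -0.015 ± 0.113 (SE; limma adjusted p = 0.997), with an interval from -0.27 to 0.24. It was 0.06 without knockout 3, 0.01 without knockout 4 and 0.05 without wildtype 2.

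Kcnn2 encodes SK2, the SK subunit most studied at hippocampal spines, where it curbs synaptic potentials. It read 11.20, 11.19, 11.09 and 11.30 in knockouts, against 10.66, 11.23, 11.10 and 11.00 in wildtype mice. Wildtype 1 lay 0.34 below the next mouse, while wildtype 2 lay within the knockout range. The knockouts averaged 11.20 ± 0.0858 and the wildtype mice 11.00 ± 0.244 (SD, 4 mice each). This difference of 0.20 ± 0.114 (SE), with an interval from -0.06 to 0.45, was the largest in size among the 8 genes and did not pass the test (limma adjusted p = 0.997). It was 0.09 without wildtype 1 and 0.28 without wildtype 2. All 17 alternative fits kept its sign, though the intensity trend, robust moderation and leaving out dim probe sets could not have turned it.

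Kcnn1 encodes SK1 and read 7.53, 7.33, 7.46 and 7.42 in knockouts, against 7.76, 7.51, 7.39 and 7.45 in wildtype mice. The knockout range sat below wildtype 1 and covered the remaining 3 wildtype readings. The means, 7.435 in knockouts and 7.53 in wildtype mice, lay near the array medians of 7.5 to 7.55. At that level signal could not be told from background. The difference was -0.09 ± 0.091 (SE; limma adjusted p = 0.997), or -0.015 without wildtype 1, -0.06 without knockout 2 and -0.14 without wildtype 3. Kcnn3, which encodes SK3, a subunit also prominent in dopamine neurons, read 9.11, 9.14, 9.20 and 8.87 in knockouts. Its wildtype readings were 8.81, 8.90, 9.18 and 9.13. Knockout 4 read low among the knockouts, as wildtype 1 and 2 did among the wildtype mice, and both groups covered nearly the same range. The Kcnn3 difference was 0.075 ± 0.105 (SE; limma adjusted p = 0.997), and 0.01 without wildtype 1, 0.145 without knockout 4, 0.13 without wildtype 3 and 0.12 without wildtype 4.

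Kcnt1 encodes Slack, a sodium-activated channel whose gain-of-function variants cause epilepsy in people. It read 8.19, 8.02, 8.21 and 7.68 in knockouts, against 8.68, 7.98, 7.88 and 8.00 in wildtype mice. Its range over the 8 arrays, 1 log2 unit, was the widest of the 8 genes, and both ends of it were single mice, wildtype 1 high and knockout 4 low. The difference was -0.11 ± 0.177 (SE; limma adjusted p = 0.997), with an interval from -0.50 to 0.28. It was 0.07 without wildtype 1, 0.0050 without knockout 4 and -0.195 without wildtype 3.

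Kcnt2 encodes Slick, the partner of Slack in mixed channels, which also responds to chloride. It read 9.37, 9.42, 9.47 and 9.99 in knockouts, against 9.32, 9.46, 9.48 and 9.46 in wildtype mice. Knockout 4 lay 0.51 above the next mouse, and the remaining 7 lay between 9.32 and 9.48. The difference was 0.13 ± 0.127 (SE; limma adjusted p = 0.997), and -0.01 without knockout 4. Kcnt2 is on chromosome 1, as is Kcnh1, with 400 protein-coding genes between them in the RefSeq order. The other members are on chromosomes 2 (Kcnt1), 3 (Kcnmb2 and Kcnn3), 8 (Kcnn1), 10 (Kcnmb4), 14 (Kcnma1) and 18 (Kcnn2).

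**Figure D2:**
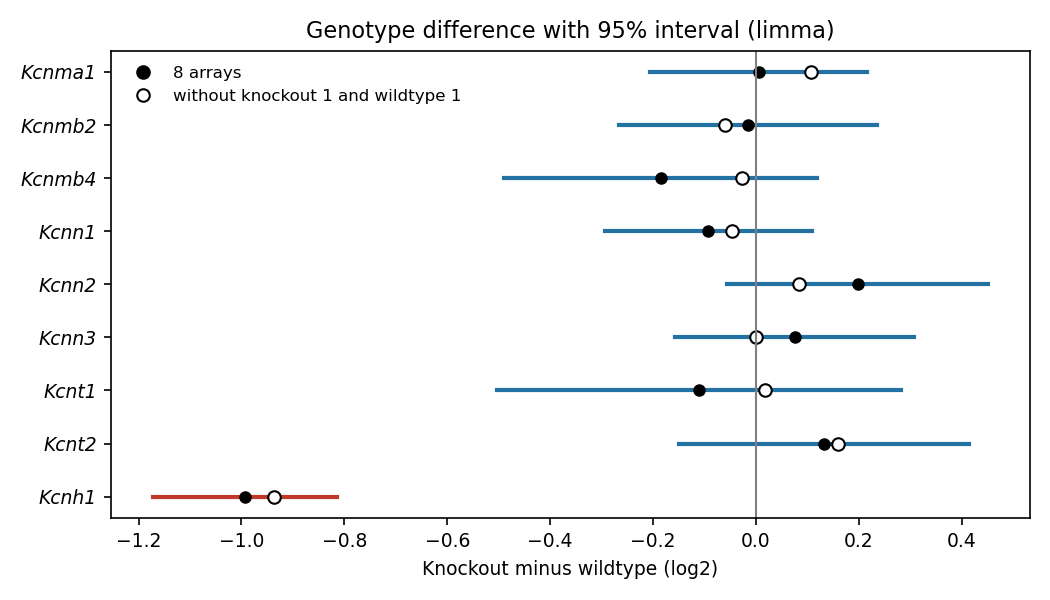
Knockout minus wildtype difference (horizontal axis, log2) of the 8 channel genes and of Kcnh1 at the bottom. Filled points are the differences over 8 arrays, lines are 95% intervals from limma, and open points are the differences without knockout 1 and wildtype 1. All 8 channel intervals span 0, while that of Kcnh1 runs from -1.17 to -0.81.

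The makeup of a channel can shift when its subunits change unequally, so 6 log2 ratios between genes of the same channel class were formed within each array. These pairs were chosen after the values were seen. Ratios with Kcnmb2 or Kcnn1 use a gene near or below the array medians, where signal could not be told from background. Kcnmb4 relative to Kcnma1 differed by -0.19 (exact two-sided permutation p = 0.143, Benjamini-Hochberg adjusted p = 0.514 over the 6 ratios), or by -0.115 without wildtype 4 and -0.28 without wildtype 2. Kcnn2 relative to Kcnn1 differed by 0.29 (exact permutation p = 0.171, adjusted p = 0.514) and by 0.10 without wildtype 1. Kcnt2 relative to Kcnt1 differed by 0.24 (exact permutation p = 0.571), by 0.02 without wildtype 1 and by -0.015 without knockout 4. The remaining ratios differed by 0.17 for Kcnn3 to Kcnn1 (0.025 without wildtype 1), -0.12 for Kcnn3 to Kcnn2 (-0.02 without knockout 4, -0.235 without wildtype 2 and -0.20 without knockout 3) and -0.02 for Kcnmb2 to Kcnma1 (between 0.021 and 0.078 when any 1 of knockout 3, knockout 4, wildtype 2 or wildtype 4 was left out). None passed. The smallest p that 35 distinct splits of 8 mice allow is 0.0286, or 0.171 after adjustment for a ratio that reaches it alone, so no single ratio could have passed and the test says little.

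The within-genotype SD of the channel genes had a median of 0.181, against 0.132 over all probe sets. It was above that of more than 50% of all probe sets for 7 of the 8 genes, and for 6 of the 8 among the 1000 probe sets nearest in level. Kcnt1 was the most variable, with an SD of 0.312 that exceeded 96.0% of all probe sets and 95.5% of the 1000 probe sets nearest to it in level. Kcnmb4 (SD 0.231) exceeded 87.9% of all probe sets and Kcnt2 (0.210) 83.6%. Among probe sets of like level these shares were 80.5% and 76.9%. Kcnma1 (0.138) exceeded 53.9% of all probe sets and 45.3% of those of like level, and Kcnn1 (0.129) 48.0% and 46.9%.

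A single mouse, wildtype 1, gave the highest or the lowest reading of 7 of the 8 genes. How often it did so over all probe sets was not counted. It was the highest array for Kcnma1, Kcnmb4, Kcnn1 and Kcnt1 and the lowest for Kcnn2, Kcnn3 and Kcnt2, with deviations from the gene mean that ran from -0.44 for Kcnn2 to 0.60 for Kcnt1. The mean size of its deviation was 0.311 for the channel genes, against 0.179 over all probe sets of that array. On the other 7 arrays the mean size of the deviation, regardless of sign, was 0.0783 to 0.202 for the channel genes. Over all probe sets it was 0.0789 to 0.125 on those arrays, so wildtype 1 deviated most there too. For Kcnt2 the deviation of wildtype 1, -0.18, was smaller in size than that of knockout 4, 0.49.

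Some markers of other cells were also high on that array. Of 10 genes listed for thalamus and habenula, which adjoin the hippocampus, 6 were highest in wildtype 1, and the list's mean deviation was 0.38 there against -0.14 to 0.03 on the other arrays. The habenular genes Tac2 and Gpr151 read 8.66 and 7.09 in wildtype 1, where the other 7 arrays read 6.64 to 7.02 and 6.37 to 6.81. Tcf7l2, Prkcd, Lef1 and Tnnt1 of the same list were not highest there. Prkcd read 8.90 in wildtype 1 and 9.72 in knockout 3, and Tcf7l2 read 8.44 in wildtype 1 and 8.53 in knockout 4. Of 10 vessel genes 5 were highest there (mean deviation 0.26, others -0.12 to 0.17), and Pvalb, an interneuron gene, read 8.85 against 7.60 to 7.86. The mean deviations of wildtype 1 were also the highest of the 8 arrays for oligodendrocyte (0.19), astrocyte (0.16) and microglia genes (0.12). Those for interneuron genes as a whole (0.09) and choroid plexus genes (-0.03) lay inside the range of the others. All 9 choroid plexus genes were highest in wildtype 2, where their mean deviation was 0.71, and Ttr read 12.43 there. Without that mouse Kcnmb4 differed by -0.30 and Kcnn2 by 0.28. The 15 hippocampal neuron genes as a whole had a mean deviation of 0.03 in wildtype 1, inside the -0.07 to 0.06 of the other arrays. The part that these cells play in the channel readings was not tested, and in bulk tissue fewer cells of a type and less RNA per cell cannot be told apart.

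Knockout 4 was the highest array for Kcnt2 and Kcnn2 and the lowest for Kcnt1. On the same array Neurod6, a transcription factor of pyramidal neurons, read 10.59 against 9.39 to 9.92 on the other 7. The hippocampal neuron list as a whole had a mean deviation of 0.03 there, inside the -0.07 to 0.06 of the others. The part of cell makeup in the Kcnt2 reading was not tested.

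**Figure D3:**
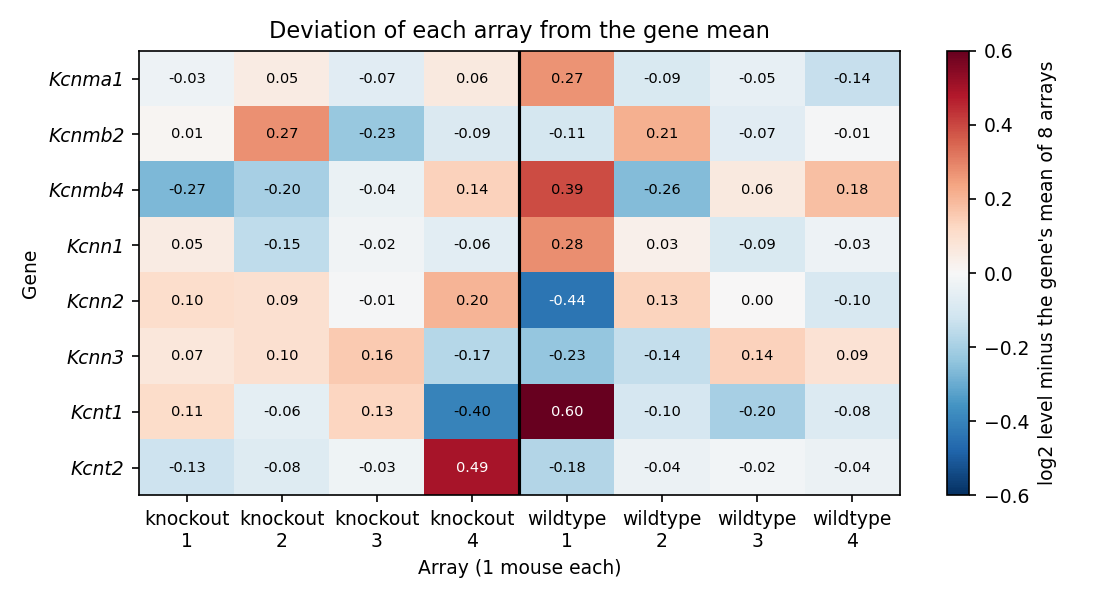
Deviation of each array (columns, knockout mice left of wildtype mice) from the mean of each channel gene over 8 arrays (rows), in log2 units given by colour and number. Wildtype 1 holds deviations from -0.44 for Kcnn2 to 0.60 for Kcnt1, the largest shown, and knockout 4 holds 0.49 for Kcnt2 and -0.40 for Kcnt1.

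Mouse numbers fall into a lower and a higher series, which the labels do not explain. The lower series holds knockout 1 and wildtype 1, 2 and 3, and the higher holds knockout 2, 3 and 4 and wildtype 4, so genotype and series are largely confounded. Within the lower series the knockout minus wildtype difference was -0.33 for Kcnmb4 and 0.20 for Kcnn2, and within the higher series it was -0.21 and 0.19. For Kcnma1 it was -0.07 in the lower and 0.15 in the higher series, for Kcnn3 0.15 and -0.06, for Kcnt2 -0.05 and 0.17, and for Kcnt1 0.01 and -0.03. Kcnn1 gave -0.02 and -0.05, and Kcnmb2 0 and -0.0067. Each of these sets a single mouse against 3, so they are values without a test. With the series as a block, Kcnmb4 differed by -0.27 ± 0.153 (SE; limma adjusted p = 0.888) and Kcnn2 by 0.20 ± 0.136 (SE; limma adjusted p = 0.900).

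Within-genotype profiles over the 8 arrays were compared by the root mean square difference after each was divided by its SD, a measure that is 0 for identical profiles and 1.22 for unrelated ones. Among the channel genes the most alike pair was Kcnn1 and Kcnt1 (0.505), followed by Kcnma1 and Kcnn1 (0.709), and the least alike was Kcnn2 and Kcnt1 (1.68, where opposite profiles give 1.73). Among 10034 named probe sets above the median level, the profile nearest to Kcnt1 was that of Plekhh1 (0.0644), followed by Fancg (0.127), and those nearest to Kcnma1 were Eef1akmt2 (0.0933) and Tub (0.111). For Kcnmb4 they were Nfkbib (0.210) and Cacna1a (0.213), the P/Q-type calcium channel gene. Those nearest to Kcnn2 were Fam98a (0.150) and Traip (0.202), to Kcnn1 Mmp17 (0.142) and Ppp1ca (0.145), and to Kcnt2 Rbm27 (0.141) and Pwwp2a (0.147). Kcnmb2 was nearest to Dcn (0.182) and Nsf (0.263), and Kcnn3 to Trp53bp2 (0.298) and Ptpn21 (0.301). Arrays with large deviations, such as wildtype 1, weigh on every such match, and the nearest of many candidates is close by construction.

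The genes that feed or modify these channels were taken from 5 lists, of which 42 of 48 genes were matched. None of the 42 passed an adjusted p of 0.05 in either direction. An unadjusted limma p under 0.05 was found for 2 of the 42, and for 3.16% of all probe sets. Both of these genes were lower in the knockouts. Of all probe sets, 1.53% had an unadjusted limma p under 0.05 and were lower. The 42 differences were positive for 17 and negative for 25, against 10130 and 10855 over all probe sets. Their median was -0.04 against -0.0025 over all probe sets. Without wildtype 1 the counts were 20 and 22, with a median of -0.0050.

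Calcium sources of BK and SK channels, the voltage-gated calcium channel and ryanodine receptor genes, had 9 of 11 negative differences and a median of -0.085. Over all probe sets, 10855 of 20985 differences were negative. The list's mean deviation ran from -0.07 to -0.01 in knockouts and from 0.0047 to 0.14 in wildtype mice. These ranges lay just apart, and wildtype 1 held the top value. Of the 11 genes, 1 was itself without overlap between the groups, and the other partner lists overlapped. Without wildtype 1 the count was the same, 9 of 11, and the median -0.07. No test was made of the list. Cacna1h, the T-type channel gene Cav3.2, read 9.02, 9.09, 9.18 and 9.15 in knockouts, against 9.35, 9.20, 9.40 and 9.32 in wildtype mice. The groups lay just apart, at a difference of -0.21 ± 0.073 (SE) that did not pass the test (limma adjusted p = 0.997). Of all probe sets, 1.19% had every knockout reading below every wildtype reading. Cacna1a, whose channel supplies calcium to presynaptic BK channels, differed by -0.16, and Ryr2, the ryanodine receptor that releases stored calcium, by -0.11 (-0.07 without wildtype 1).

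The kinases that act on BK channels had a median of -0.02, with 2 of 8 differences positive, or 0.0071 with 4 of 8 positive without wildtype 1. Camk2b, a subunit of the calcium-calmodulin kinase of synapses, read 11.77, 11.72, 11.74 and 11.75 in knockouts, against 12.34, 11.93, 11.82 and 11.99 in wildtype mice. All knockouts lay below all wildtype mice, within 0.05 of each other. The same order of groups held for 1.19% of all probe sets. The Camk2b difference of -0.28 ± 0.104 (SE) did not pass the test (limma adjusted p = 0.997). It was -0.17 without wildtype 1. Camk2a, its partner subunit, differed by -0.15 (-0.10 without wildtype 1), and Prkacb, a catalytic subunit of protein kinase A, by 0.09 (0.21 without knockout 4, 0.02 without knockout 2).

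The partners that sit on SK channels are calmodulin, which senses calcium, and the kinase CK2 and phosphatase PP2A, which set its calcium sensitivity. Their median was -0.04 over 8 genes, 3 positive and 5 negative, but 0.025 with 5 positive and 3 negative without knockout 4. Calm3 differed by -0.16 (-0.08 without wildtype 1), Ppp2cb, a PP2A catalytic subunit, by -0.21 (-0.10 without wildtype 1), and Calm2 by 0.11 (0.05 without knockout 4, 0.22 without knockout 1). Sodium sources and the FMRP family, of which FMRP binds Slack and the BK subunit β4, had 5 of 7 positive and a median of 0.08, the same as without wildtype 1, where 6 were positive. Fxr1 differed by 0.20 (0.13 without wildtype 1), the sodium channel gene Scn2a by 0.14 and Scn8a, the Nav1.6 gene, by -0.20 (-0.07 without wildtype 1).

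The other subunits of calcium-activated potassium channels had a median of 0.0087 over 8 genes, 5 positive and 3 negative, and of -0.016 with 4 positive and 4 negative without knockout 4. Kcnmb3, the β3 subunit, differed by 0.13, and Kcnmb1, the β1 subunit of smooth muscle, by -0.12. Kcnn4, the intermediate-conductance channel of blood cells, differed by 0.07 (0.02 without wildtype 1, 0.14 without knockout 1). Over the 8 arrays Kcnmb3 read 7.13 to 7.45, Kcnmb1 6.20 to 6.48 and Kcnn4 6.50 to 6.83. All lay below the array medians, where signal could not be told from background. The widest interval among them was that of Lrrc26, a BK auxiliary gene of secretory epithelia, from -0.64 to 0.45.

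**Figure D4:**
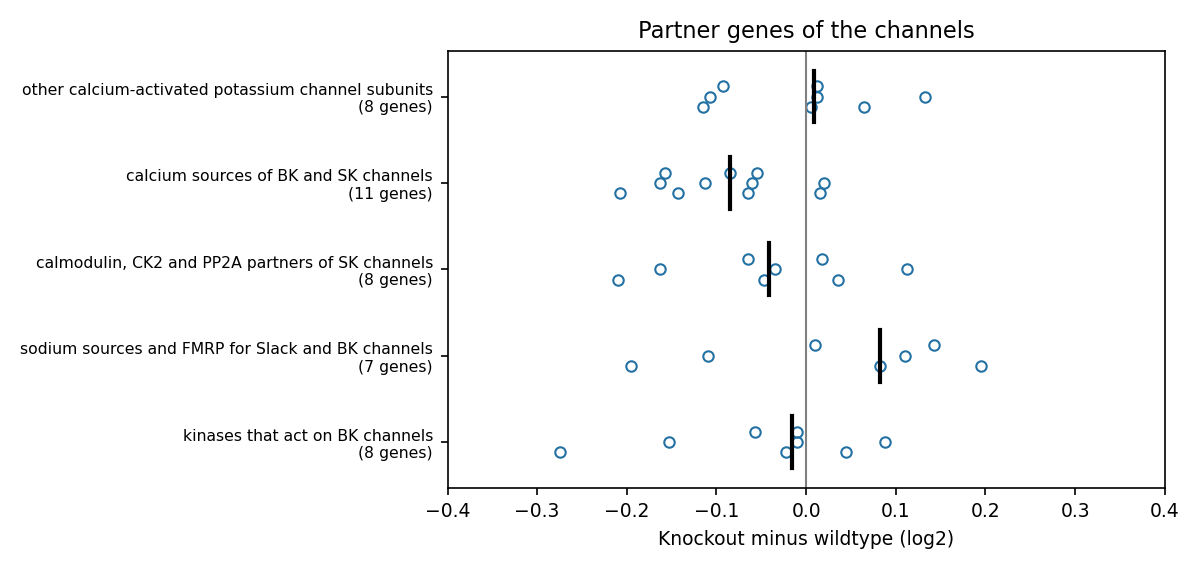
Knockout minus wildtype difference (horizontal axis, log2) of the 42 partner genes in 5 lists (rows). Each circle is 1 gene and each black bar the list's median. The calcium sources have 9 of 11 genes below 0 and a median of -0.085, where 10855 of all 20985 probe sets are below 0. No gene passed the test.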

How the data were processed

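Hippocampal RNA from 4 knockout and 4 wildtype mice was measured on 1 Affymetrix array per mouse. The deposited values are log2 expression levels with 2 decimals. R 2.9, limma and RMA (background correction, quantile normalization and probe summary) made them, per the submitters' processing notes. Settings and genome build are not given in the sources. Replicate numbers follow record order and pair nothing. Each title names its own mouse.

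A two-sided limma 3.58.1 model (lmFit, eBayes, under R 4.3.3) was fitted to all 20985 probe sets with genotype as the factor, and p-values were Benjamini-Hochberg adjusted over all of them. The fit was tested on simulated data. Of the probe sets, 19921 had 1 gene name on the platform. The named genes were the 8 channel genes, Kcnh1, any partner gene past the threshold and the 3 with the smallest p per partner list, and the 2 nearest profiles per channel gene. Further genes (Lrrc26, Tac2, Gpr151, Tcf7l2, Prkcd, Lef1, Tnnt1, Pvalb, Neurod6, Prox1, Wfs1, Dsp, Ttr) were named after their values were seen. A list's mean deviation is the mean over its genes of the level minus the gene's mean over 8 arrays. Of 79 marker genes in 8 lists, 76 were matched. The members and lists were chosen with earlier results of these data known. Promoters are from RefSeq, GRCm38.p6. Those of 6 of the 8 channel genes were used.

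Alternatives were array weights, median centring, an intensity trend, robust moderation, quantile normalization repeated and leaving out the 25% or 50% dimmest probe sets. Further ones were the mouse number series as a block, each mouse left out, and knockout 1 and wildtype 1 left out together. Of that pair only wildtype 1 stood apart. Knockout 1 scored 14.9 on the first principal component, smaller in size than knockout 4 at -15.9. The subunit ratios and the counts of list members without single arrays were added after the values were seen.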

Additional observations from a re-analysis of the deposited data

Results flagged for a closer look

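In 5 of 48 groups of 4 mice examined, 1 mouse lay far from the other 3 of its genotype by Dixon's ratio. The groups covered 24 named genes: the channel genes, Kcnh1 and the named partner genes. Independent groups would give about 1 in 20 by chance. These are not independent, as all 5 came from wildtype 1 or knockout 4, so the count cannot be set against that share. Wildtype 1 read 8.68 for Kcnt1, while wildtype 2, 3 and 4 read 7.88 to 8.00. Knockout 4 read 9.99 for Kcnt2, while knockout 1, 2 and 3 read 9.37 to 9.47. Wildtype 1 read 9.32 for the same gene, below the 9.46 to 9.48 of its group. Scn8a, the Nav1.6 sodium channel gene, read 10.65 in knockout 4, above the 10.46 to 10.48 of the remaining knockouts, and 11.08 in wildtype 1, above the 10.54 to 10.62 of the remaining wildtype mice.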

How the results depend on the processing

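No channel gene and no partner gene tested passed an adjusted p of 0.05 in any of the 17 alternative fits, and the smallest limma adjusted p was 0.888 among the channel genes and 0.805 among the named partner genes. With array weights, and with quantile normalization repeated, 2 probe sets passed in place of 1. Once the dimmest 50% were dropped, Kcnmb2 and Kcnn1 were not tested and 33 of the 42 partner genes were, as 39 were without the dimmest 25%. Kcnmb4, Kcnn1 and Kcnn2 kept their sign in every fit that tested them, and Kcnn3 did so except that it was 0 without knockout 1 and wildtype 1. Signs turned in 16 of 134 values of the channel genes, all small. The 134 include fits in which no sign could turn. The intensity trend, robust moderation and leaving out dim probe sets keep each difference as it was. Kcnma1 was -0.015 with quantile normalization repeated, and ran from -0.041 to 0.096 with single mice left out. Kcnmb2 was 0.065 with array weights and 0.0025 with median centring, and ran from -0.11 to 0.058 with single mice left out. Kcnt1 was 0.044 with array weights and 0.017 without both knockout 1 and wildtype 1. It ran from -0.195 to 0.072 with single mice left out, as Kcnt2 did from -0.01 to 0.20. With the mouse number series as a block, Kcnn4 was -0.04 and Calm2 -0.012. The ratio of Kcnmb2 to Kcnma1 ran from -0.15 to 0.078 and that of Kcnt2 to Kcnt1 from -0.015 to 0.36 with single mice left out. No paired analysis was possible because the replicate numbers follow record order and pair nothing. The number of arrays and the unknown signal over background limit the precision.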
